A study of Mus musculus with 6 samples.

Results

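Aggrecan (Acan), link protein (Hapln1), the related link protein Hapln3, versican (Vcan), perlecan (Hspg2), the NG2 proteoglycan (Cspg4) and the hyaluronan receptor Cd44 were followed in growth plate cartilage of mouse embryos at E18.5. They were taken from the deposited table by gene symbol, 7 of 15803 genes, and each symbol matched 1 row. The CKO group carried Col2a1-Cre;Hnrnpk fl/fl, in which Cre recombinase driven by the Col2a1 promoter removes loxP-flanked exons of Hnrnpk in chondrocytes. The WT group carried Hnrnpk fl/fl without Cre, so both groups shared the floxed allele and differed in the presence of Cre. Each group had 3 poly(A) RNA libraries, and the labels do not say whether they came from separate embryos, so p-values measure the spread between libraries. Values are CPM (reads per 1000000 reads of the library), and the libraries held 1153871 to 1454094 reads.

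Cartilage resists compression because aggrecan, a core protein crowded with chondroitin sulfate chains, is held in the matrix as giant aggregates on hyaluronan. Link protein locks each aggrecan monomer onto the hyaluronan strand, and the receptor Cd44 can tether such strands to the cell surface. Versican is a relative of aggrecan that is abundant in the mesenchyme before cartilage forms and gives way to aggrecan as chondrocytes mature. Perlecan carries mainly heparan sulfate, surrounds chondrocytes and is also a constant part of basement membranes, while NG2 spans the plasma membrane of immature chondrocytes and of mural cells.

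In the CKO libraries Acan was 2.80-fold lower and Cd44 was 2.66-fold higher, by the ratio of mean CPM, and the other 5 genes did not pass an adjusted p of 0.05. In bulk RNA, fewer or more cells of a type and less or more RNA per cell cannot be told apart. Hapln1, the partner of Acan in the aggregate, overlapped between the groups, with a log2 fold change of -0.20 (SE 0.16). Of the 7 genes tested with limma on log2(CPM + 1), 1 was called higher and 1 lower, against 5.78% of 12155 genes called in either direction (3.18% higher and 2.60% lower). The groups did not overlap for Acan, Vcan, Hspg2 and Cspg4, all lower in CKO, and for Cd44, higher in CKO. Over all genes tested, 27.7% showed no overlap, 13.2% on the lower and 14.5% on the higher side. The median log2 fold change of the 7 genes was -0.64, and that of all genes tested was 0.013. For a single gene the exact two-sided permutation test of 3 against 3 libraries cannot give a p below 0.1, and that smallest value was reached by these 5 genes.

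**Figure D1:**
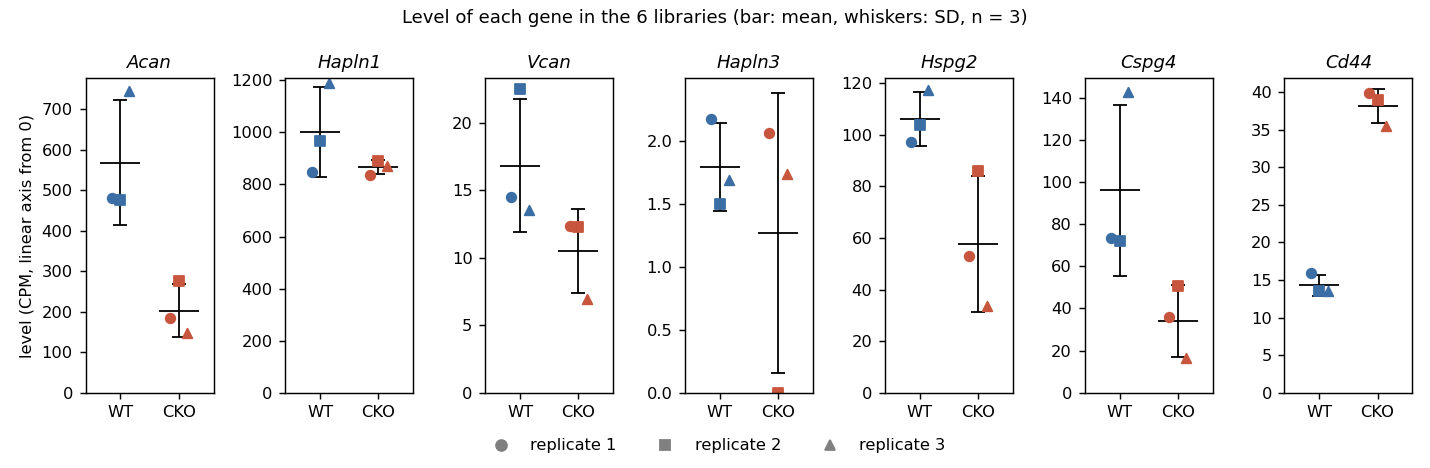
Level in CPM on linear axes from 0 of each of the 7 genes, with 1 point per library (circle, square and triangle for replicates 1, 2 and 3), the mean as a bar and the SD as whiskers (n = 3). The Acan points of CKO lie between 147 and 276 CPM, below all WT points, and the Cd44 points of CKO lie between 35.5 and 39.9 CPM, above all WT points.

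The libraries were not alike within groups. By the chi-square per degree of freedom of their reads over genes, WT replicates 1 and 2 differed by 2.06 and CKO replicates 1 and 3 by 1.29. WT replicate 3 differed from the other WT libraries by 8.65 and 9.43, and CKO replicate 2 from the other CKO libraries by 13.1 and 14.2. Hnrnpk itself was at 842, 955 and 944 CPM in WT replicates 1, 2 and 3 and at 759, 949.9 and 780.0 CPM in CKO replicates 1, 2 and 3. The groups overlapped (log2 fold change -0.14, SE 0.15, limma adjusted p = 0.622), and a value per gene does not separate the deleted exons from the rest of the transcript, so it does not check the labels.

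Levels of different genes were compared as CPM per kilobase of merged exons in GENCODE M21, which does not resolve which transcript of a gene was made. Dividing by length presumes that longer transcripts give more reads, which was not checked. In WT libraries Hapln1 stood first with 169.5 ± 29.4 CPM per kb (SD, n = 3), followed by Acan with 76.1 ± 20.6. Cspg4 with 8.05 ± 3.39 and Hspg2 with 7.41 ± 0.725 came next and overlapped each other. Cd44 with 2.11 ± 0.207, Vcan with 1.16 ± 0.341 and Hapln3 with 0.509 ± 0.0989 closed the order without overlap between neighbours. Link protein and aggrecan thus led the set, at the 97.2 and 94.5 percentiles of CPM per kb among the 15212 genes with an annotated length, while versican lay at the 48.0 percentile. In plain CPM Hapln1 and Acan also led. The order below them depended on the length, since the WT means of plain CPM put Hspg2 (106) before Cspg4 (96.0) and Vcan (16.8) before Cd44 (14.3).

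In CKO libraries Hapln1 again stood first with 146.7 ± 4.58 CPM per kb, and Acan again came second with 27.2 ± 8.82. Cd44 was now next after Acan, with 5.63 ± 0.339 CPM per kb, overlapping Hspg2 with 4.02 ± 1.84, which in turn overlapped Cspg4 with 2.87 ± 1.43. Vcan with 0.728 ± 0.215 and Hapln3 with 0.360 ± 0.315 were last and overlapped. In plain CPM the CKO mean of Hspg2 (57.5) was above that of Cd44 (38.1). The percentile of Acan was 88.2 in CKO and that of Cd44 was 70.9, against 57.1 in WT.

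Acan (ENSMUSG00000030607) encodes the aggrecan core protein and lies on the plus strand of chr7:79053483-79115099 (GRCm38), with 7469 bases of merged exons. It was at 482, 477 and 746 CPM in WT replicates 1, 2 and 3 and at 186, 276 and 147 CPM in CKO replicates 1, 2 and 3. WT replicate 3 was the highest WT library, CKO replicate 2 was the highest CKO library, and every CKO library was below every WT library. The mean fell from 568 ± 154 to 203 ± 65.9 CPM (SD, n = 3), a log2 fold change of -1.50 (SE 0.25, 95% interval -2.05 to -0.94, limma adjusted p = 0.00859). The change passed the threshold in 13 of 13 alternative analyses, with adjusted p up to 0.0418 and log2 fold changes of -1.74 to -1.28. It rests on 2183 reads in WT and 822 reads in CKO.

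The 250 bases before the RefSeq start of Acan (GRCm38.p6, plus strand, chr7:79052976-79053225) and before that of Cd44 (minus strand, chr2:102901666-102901915) are shown because these genes were called in opposite directions. They are written 5′ to 3′, and capitals mark the GC box GGGCGG or its reverse complement CCGCCC.
Acan promoter: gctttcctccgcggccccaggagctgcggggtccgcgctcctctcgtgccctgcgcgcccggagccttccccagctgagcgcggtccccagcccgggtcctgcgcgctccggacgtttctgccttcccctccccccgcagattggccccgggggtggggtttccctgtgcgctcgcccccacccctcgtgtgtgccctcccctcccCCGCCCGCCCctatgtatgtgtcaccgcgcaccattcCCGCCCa
Cd44 promoter: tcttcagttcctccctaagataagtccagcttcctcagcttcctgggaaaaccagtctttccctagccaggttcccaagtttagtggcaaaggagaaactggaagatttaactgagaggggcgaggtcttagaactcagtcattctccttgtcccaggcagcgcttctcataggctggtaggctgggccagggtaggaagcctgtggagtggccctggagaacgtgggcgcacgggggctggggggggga
The Acan window held 3 GC boxes, which begin 44, 40 and 7 bases before the start, the first of them overlapping the next, and its GC content of 74.4% was at the 95.4 percentile of 32851 RefSeq promoters with a median of 52.4%. The Cd44 window held none of the motifs searched and had a GC content of 56.4%. A GC box on either strand was present in 32.7% of all promoters. In the corresponding windows Hspg2 held 5, Cspg4 and Vcan 2 each, and Hapln1 and Hapln3 none. The SOX-type motifs ACAATG (10.7% of promoters) and ACAAAG (16.5%), searched on both strands, were in none of the 7 windows. The TATA box letters TATAAA (12.4%) were in that of Hapln3 alone, where they begin 239 bases before the start, near the far end of the window. A match is a description of letters in the window and does not show that a factor binds there.

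Hapln1 (ENSMUSG00000021613, plus strand, chr13:89539796-89611652, 5902 bases of exons) encodes the cartilage link protein. It was at 847, 966 and 1189 CPM in WT replicates 1, 2 and 3 and at 837, 891 and 869 CPM in CKO replicates 1, 2 and 3. CKO replicates 2 and 3 lay above WT replicate 1, so the groups overlapped. The means were 1001 ± 173 and 866 ± 27.0 CPM, and the 95% interval of the log2 fold change, -0.54 to 0.15, excluded a fall of the size seen for Acan (limma adjusted p = 0.518).

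Because link protein and aggrecan meet in the same aggregate, their ratio was taken within each library. There were 1.76, 2.03 and 1.59 CPM of Hapln1 for each CPM of Acan in WT replicates 1, 2 and 3 and 4.51, 3.23 and 5.90 in CKO replicates 1, 2 and 3. The ratio was higher in every CKO library than in every WT library, by 1.30 ± 0.33 on the scale of log2(CPM + 1) (SD pooled over the groups). The lowest CKO ratio came from replicate 2, the CKO library with the most Acan. These ratios are given as values without a test, since the genes were chosen with results known.

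**Figure D2:**
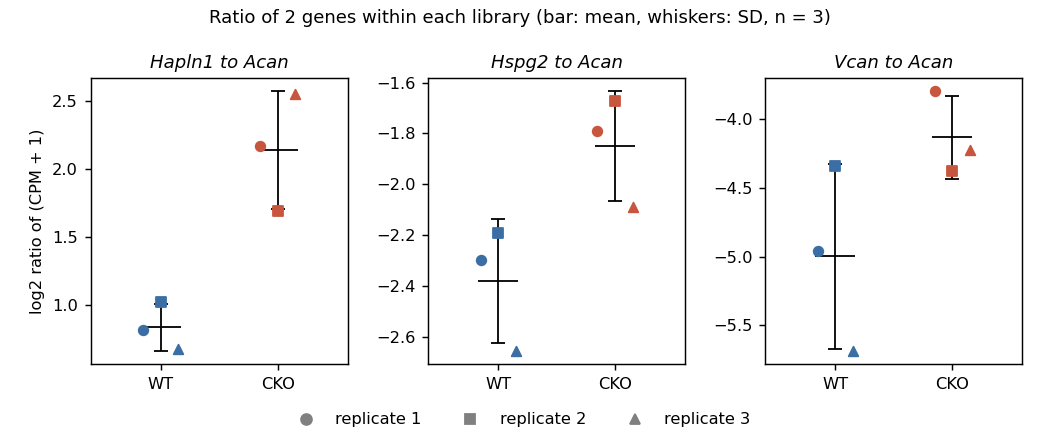
Log2 ratio of (CPM + 1) of Hapln1, Hspg2 and Vcan to Acan within each library, on axes that do not start at 0 and differ between panels, with 1 point per library, the mean as a bar and the SD as whiskers (n = 3). Hapln1 to Acan runs from 0.67 to 1.02 in WT and from 1.69 to 2.55 in CKO, whereas Vcan to Acan overlaps between the groups.

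Vcan (ENSMUSG00000021614, minus strand, chr13:89655312-89742509, 14462 bases of exons), the versican core protein gene, was measured near the limit of depth. It was at 14.5, 22.5 and 13.5 CPM in WT replicates 1, 2 and 3 and at 12.4, 12.3 and 6.93 CPM in CKO replicates 1, 2 and 3. The CKO libraries were all lower, by little more than 1 CPM between CKO replicate 1 and WT replicate 3, and these values are 66 reads in WT and 43 in CKO. The log2 fold change of -0.64 (SE 0.34, 95% interval -1.39 to 0.12) did not pass the threshold (limma adjusted p = 0.316), and it was -0.42 without WT replicate 2 and -0.39 without CKO replicate 3. The log2 ratio of Vcan to Acan was -4.96, -4.34 and -5.69 in WT replicates 1, 2 and 3 and -3.80, -4.38 and -4.22 in CKO replicates 1, 2 and 3. It overlapped between the groups, with WT replicate 2 above CKO replicate 2, and versican stayed far below aggrecan in every library.

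Hapln3 (ENSMUSG00000030606, minus strand, chr7:79115102-79131018), a link protein related to Hapln1, had 3, 2 and 2 reads in WT replicates 1, 2 and 3 and 3, 0 and 2 reads in CKO replicates 1, 2 and 3. Every library was at or below 3 reads, and the 0 of CKO replicate 2 allows up to 2.17 CPM, so no fold change is given. Among the other lecticans and link proteins, Bcan ranged from 0 to 3.38 CPM in WT and from 0.688 to 1.44 CPM in CKO. Ncan and Hapln4 had at most 1 read in any library, and Hapln2 was not analysed here. Of the lecticans analysed, Acan and Vcan were above 3 reads in every library, and of the link proteins Hapln1 was.

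Each lectican gene lies next to a link protein gene, and 2 of these pairs fall among the 7 genes. Acan and Hapln3 face each other on chromosome 7 with 2 bases between their ends, and Hapln1 and Vcan face each other on chromosome 13 with 43.7 kb and no protein-coding gene between them. No annotated exon of another gene overlapped those of the 7 genes. Mfge8, a secreted bridging protein whose gene lies 2.75 kb beyond Hapln3, averaged 312 ± 114 CPM in WT and 335 ± 75.5 CPM in CKO (log2 fold change 0.14, adjusted p = 0.797, limma), and this small difference turned to -0.012 without WT replicate 2 and -0.041 without CKO replicate 2. Edil3, a matrix protein related to Mfge8 whose gene lies 217 kb from Hapln1, measured 81.9, 87.8 and 119 CPM in WT replicates 1, 2 and 3 and 45.4, 55.6 and 47.7 CPM in CKO replicates 1, 2 and 3. Edil3 was lower without overlap (log2 fold change -0.93, SE 0.20, limma adjusted p = 0.0272). Its adjusted p was 0.0650 to 0.109 when WT replicate 1, 2 or 3 or CKO replicate 1 or 3 was left out. Of the 20 tested protein-coding neighbours of the 7 genes, Edil3 was the only one called, against 5.78% of all genes tested. The median log2 fold change was -0.16, and the neighbours other than Edil3 ran from -1.27 for Pamr1 next to Cd44 to 0.97 for Xrcc4 next to Vcan.

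**Figure D3:**
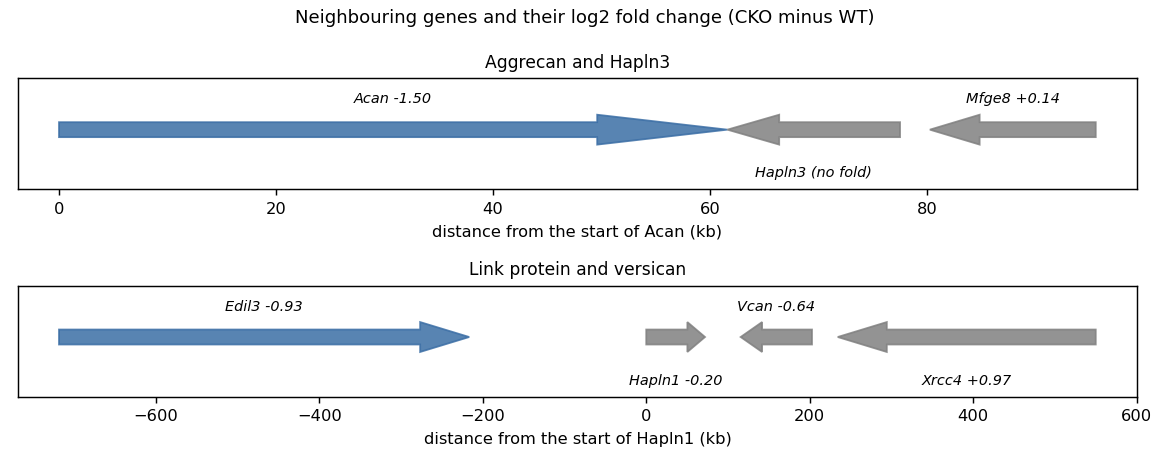
Position and strand of Acan, Hapln3 and Mfge8 (upper map) and of Edil3, Hapln1, Vcan and Xrcc4 (lower map), as distance in kb from the start of Acan or Hapln1, with the log2 fold change (CKO minus WT) beside each arrow. Acan at -1.50 and Edil3 at -0.93 are blue for an adjusted p under 0.05, and their nearest partners are grey.

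Hspg2 (ENSMUSG00000028763, plus strand, chr4:137468769-137570630, 14307 bases of exons) encodes perlecan, the heparan sulfate proteoglycan around chondrocytes. It was at 97.1, 104 and 117 CPM in WT replicates 1, 2 and 3 and at 53.0, 85.9 and 33.8 CPM in CKO replicates 1, 2 and 3. The groups did not overlap, but CKO replicate 2 came close to the lowest WT library. The log2 fold change of -0.97 (SE 0.29, 95% interval -1.62 to -0.31) did not pass the adjusted threshold (limma adjusted p = 0.0859), whereas without CKO replicate 2 it was -1.30 with an adjusted p of 0.00405 and without CKO replicate 3 it was -0.64 with an adjusted p of 0.249. The log2 ratio of Hspg2 to Acan was -2.30, -2.19 and -2.66 in WT replicates 1, 2 and 3 and -1.79, -1.67 and -2.09 in CKO replicates 1, 2 and 3. The ratio was thus higher in every CKO library than in every WT library, with a difference of 0.53 between the means on the log2 scale. CKO replicate 3 was only slightly above WT replicate 2, and its Hspg2 value rests on 39 reads, a counting error of 16.0%. The gap between these libraries is within that error.

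Perlecan binds nidogens, laminins and collagens of basement membranes. The list of 12 basement membrane partners used here also held Agrn and Dag1, which are not nidogens, laminins or collagens. Of the 12, all tested, 0 passed in either direction with limma, and their median log2 fold change was 0.062. At an unadjusted p under 0.05, 0 were higher and 4 lower (Nid2, Col4a2, Lamb2 and Dag1, the last 3 named after their values were seen), where 21.3% of all genes tested passed, 11.2% higher and 10.1% lower. DESeq2 called 0 and edgeR 1, Col4a2, which was lower. The partner with the highest level, Nid2 (nidogen 2, a linker of laminin to collagen IV), was at 199, 179 and 230 CPM in WT replicates 1, 2 and 3 and at 148, 54.9 and 118 CPM in CKO replicates 1, 2 and 3. Nid2 did not overlap between the groups (log2 fold change -1.02, limma adjusted p = 0.0859). Here CKO replicate 2 was the lowest of its group, unlike for Hspg2, and without it the log2 fold change was -0.61 with an adjusted p of 0.0429.

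Cspg4 (ENSMUSG00000032911, plus strand, chr9:56865033-56899870, 11931 bases of exons) encodes the membrane-spanning proteoglycan NG2. It was at 73.2, 72.0 and 143 CPM in WT replicates 1, 2 and 3 and at 35.8, 50.5 and 16.5 CPM in CKO replicates 1, 2 and 3. All CKO libraries were below all WT libraries, WT replicate 3 stood far above the other WT libraries, and the order within CKO was that of Acan and Hspg2, with replicate 2 highest and replicate 3 lowest. The log2 fold change of -1.52 (SE 0.39, 95% interval -2.39 to -0.65) was of the size of that of Acan, with a wider spread and a limma adjusted p of 0.0501. It passed in 5 of 13 alternative analyses, among them -1.86 without CKO replicate 2 (adjusted p = 0.00894) and -1.50 with edgeR on the recovered reads (adjusted p = 0.0498). By the criterion of the study, a log2 fold change beyond 1 with an unadjusted p under 0.05, Acan and Cspg4 were lower and Cd44 was higher, 3 of 7 genes against 10.4% of all genes tested (5.10% lower and 5.30% higher).

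NG2 is also a mark of mural cells, the pericytes and smooth muscle cells of vessels. The summed level of 6 mural cell markers was 28.3, 52.5 and 47.3 CPM in WT replicates 1, 2 and 3 and 63.3, 61.4 and 61.5 CPM in CKO replicates 1, 2 and 3. The sums did not overlap, but without Pdgfrb they did, at 5.80, 8.25 and 13.5 CPM in WT and 19.9, 28.1 and 9.53 CPM in CKO, and 0 of 4 tested markers passed with limma, also at an unadjusted p under 0.05, or with edgeR or DESeq2 (Pdgfrb, a pericyte receptor, log2 fold change 0.37). Kcnj8 and Abcc9 had at most 1 read in any library. The summed endothelial markers did not exceed 3.38 CPM in any library. The part of mural cells in the Cspg4 level was not tested.

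**Figure D4:**
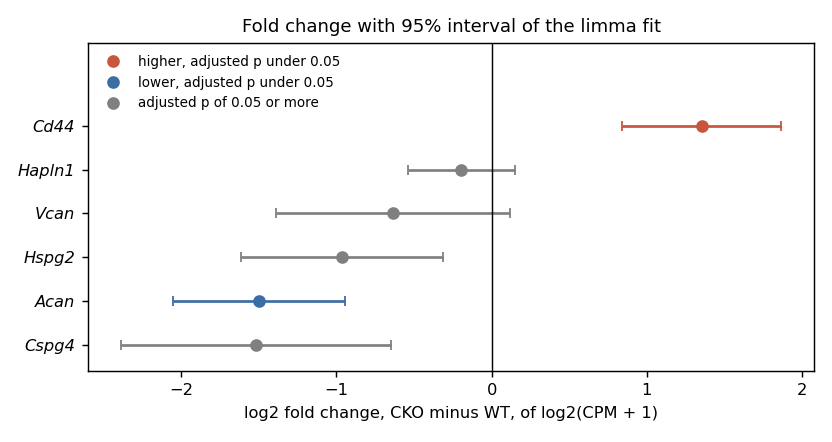
Log2 fold change (CKO minus WT, of log2(CPM + 1)) of 6 genes with its 95% interval from limma, where red and blue mark an adjusted p under 0.05. Cd44 at 1.35 is the only gene to the right of 0, and the interval of Hapln1, from -0.54 to 0.15, spans 0, as does that of Vcan. Hapln3 is left out because all its libraries had at most 3 reads.

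Cd44 (ENSMUSG00000005087, minus strand, chr2:102811141-102901665, 6776 bases of exons) encodes the main cell surface receptor for hyaluronan. It was at 15.9, 13.5 and 13.5 CPM in WT replicates 1, 2 and 3 and at 39.9, 39.0 and 35.5 CPM in CKO replicates 1, 2 and 3. Libraries were close together within each group and far apart between them. The mean rose from 14.3 ± 1.41 to 38.1 ± 2.30 CPM, or from 56 to 153 reads in all (log2 fold change 1.35, SE 0.23, 95% interval 0.84 to 1.87, limma adjusted p = 0.00936). It passed in 11 of 13 alternative analyses. Without WT replicate 2 or CKO replicate 1 the log2 fold change was 1.32, with an adjusted p of 0.0501 and 0.0526, respectively.

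Of 6 genes listed as partners of Cd44, 2 rose and 0 fell, against 3.18% and 2.60% of all genes tested. Their median log2 fold change was 0.46, and that of all genes tested was 0.013. Spp1 (osteopontin, a secreted ligand of Cd44 and integrins) was at 1037, 1095 and 3769 CPM in WT replicates 1, 2 and 3 and at 11114, 11877 and 12045 CPM in CKO replicates 1, 2 and 3. The WT libraries were unequal, with replicate 3 highest, and all were far below the CKO libraries (log2 fold change 2.84, SE 0.40, limma adjusted p = 0.00403). Msn (moesin, which ties the tail of Cd44 to actin) was at 133, 185 and 193 CPM in WT replicates 1, 2 and 3 and at 356, 436 and 392 CPM in CKO replicates 1, 2 and 3. The groups of Msn did not overlap either (log2 fold change 1.22, SE 0.18, limma adjusted p = 0.00505). The related actin linkers Ezr and Rdx and the proteases Mmp14 and Adam10 did not pass.

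Cd44 is also made by leukocytes, and markers of macrophages and osteoclasts were read beside it. Their summed level was 113 CPM in WT replicate 3 and lower in the other WT libraries, and it was 179, 179 and 193 CPM in CKO replicates 1, 2 and 3. Of 5 tested genes 1 rose, against 3.18% of all genes tested. All 5 had a positive log2 fold change, with a median of 1.48. At an unadjusted p under 0.05, 2 were higher, against 11.2% of all genes tested. They were Cd68 and the osteoclast phosphatase Acp5 (1.49, limma adjusted p = 0.180), the latter named after its values were seen. The gene that rose, Cd68, a lysosomal protein of macrophages, measured 8.70, 6.75 and 11.8 CPM in WT replicates 1, 2 and 3 and 76.3, 46.9 and 76.3 CPM in CKO replicates 1, 2 and 3 (log2 fold change 2.74, limma adjusted p = 0.00114). Ptprc, the pan-leukocyte antigen, had 0 reads in WT and 1 read in CKO, and Ctsk, the osteoclast protease, ranged from 81.9 to 95.3 CPM in WT and from 88.0 to 107.5 CPM in CKO. The part of Cd68-expressing cells in the Cd44 level was not tested.

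Hyaluronan is the strand to which aggrecan, versican, link protein and Cd44 bind. Of 8 genes for its synthesis and breakdown 5 were tested, and 0 passed in either direction with limma, edgeR or DESeq2 (median log2 fold change -0.17). At an unadjusted p under 0.05, 1 of the 5 was higher, against 11.2% of all genes tested, namely Cemip2, a hyaluronan-degrading membrane protein named after its values were seen. Cemip2 had only 9 reads in WT and 27 in CKO (log2 fold change 1.31, limma adjusted p = 0.106). The most abundant, Hyal2, a hyaluronidase anchored at the cell surface, was at 103, 93.1 and 79.4 CPM in WT replicates 1, 2 and 3 and at 104, 57.0 and 90.1 CPM in CKO replicates 1, 2 and 3. The groups overlapped, and the log2 fold change of -0.17 was 0.083 without CKO replicate 2. The synthases Has1, Has2 and Has3 did not exceed 5.05 CPM in any library. Has2, named after its values were seen, was higher in CKO without overlap (log2 fold change 1.07, limma adjusted p = 0.300). It had only 5 reads in WT and 14 in CKO. Without overlap 2 of the 5 tested genes were higher and 0 lower, against 14.5% and 13.2% of all genes tested. Of the other hyaluronan-binding proteins 4 of 7 were tested, and 0 passed with limma, edgeR or DESeq2. At an unadjusted p under 0.05, Layn was higher and Itih5, named after its values were seen, was lower. That is 1 of 4 in each direction, against 11.2% higher and 10.1% lower of all genes tested. Layn (layilin, a membrane receptor) measured 4.35, 10.5 and 32.1 CPM in WT replicates 1, 2 and 3 and 24.1, 53.4 and 23.4 CPM in CKO replicates 1, 2 and 3, so that WT replicate 3 lay within the CKO range (log2 fold change 1.34, limma adjusted p = 0.214). Without WT replicate 3 it was 2.04 with an adjusted p of 0.0415, and without WT replicate 1 it was 0.72 with an adjusted p of 0.522.

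Aggrecan and versican are cleaved by ADAMTS proteases, of which 4 of 7 were tested. None passed in either direction with limma, also at an unadjusted p under 0.05, or with edgeR or DESeq2, and the median log2 fold change was 0.013. Adamts1, the most abundant, was at 28.3, 41.3 and 50.7 CPM in WT replicates 1, 2 and 3 and at 42.6, 37.5 and 39.9 CPM in CKO replicates 1, 2 and 3, with the CKO libraries inside the WT range. The fold change, 0.035 on the log2 scale, turned to -0.0096 with TMM-scaled CPM, -0.037 with edgeR and -0.022 with DESeq2.

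The chondroitin sulfate chains of aggrecan and versican are built from UDP-sugars and sulfated from the donor PAPS. Of 23 genes of this route 22 were tested, and 1 rose and 1 fell, against 3.18% and 2.60% of all genes tested. The log2 fold change was negative for 17, with a median of -0.49. At an unadjusted p under 0.05, 5 were lower (B3gat3, Chpf2, Csgalnact1, Chst11 and Papss2), against 10.1% of all genes tested. By the same criterion 1 was higher (Ugdh), against 11.2%. Of these named genes, those other than Papss2 and Ugdh were named after their values were seen. Without overlap 6 were lower and 1 was higher, against 13.2% and 14.5% of all genes tested. Papss2, the main PAPS synthase of cartilage, was at 354, 331 and 645 CPM in WT replicates 1, 2 and 3 and at 142, 245 and 159 CPM in CKO replicates 1, 2 and 3. As for Acan, WT replicate 3 and CKO replicate 2 were the highest of their groups, and the groups did not overlap (log2 fold change -1.25, SE 0.28, limma adjusted p = 0.0276). The adjusted p of Papss2 was 0.0529 to 0.113 when WT replicate 1, 2 or 3 or CKO replicate 1 or 3 was left out.

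Ugdh, which makes UDP-glucuronate for both chondroitin sulfate and hyaluronan, went the other way. It was at 212, 215 and 383 CPM in WT replicates 1, 2 and 3 and at 537, 900.1 and 568 CPM in CKO replicates 1, 2 and 3. All CKO libraries were higher, with replicate 2 the highest (log2 fold change 1.32, SE 0.26, limma adjusted p = 0.0187). The adjusted p was 0.101, 0.0984 and 0.0553 without WT replicate 1, WT replicate 2 and CKO replicate 3, respectively.

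The lectin domain of aggrecan and versican binds fibulins, fibrillin and tenascins. Of 4 tested ligands 0 passed with limma, edgeR or DESeq2, and the median log2 fold change was -0.43. At an unadjusted p under 0.05, 1 was lower, against 10.1% of all genes tested. It was Fbln1 (fibulin 1), named after its values were seen. Without overlap 2 of the 4 ligands were lower and 0 higher, against 13.2% and 14.5% of all genes tested. The ligand with the highest mean over all 6 libraries, Fbln2 (fibulin 2), was at 44.2, 51.8 and 101 CPM in WT replicates 1, 2 and 3 and at 144, 57.7 and 155 CPM in CKO replicates 1, 2 and 3. CKO replicate 2 lay inside the WT range, and the log2 fold change was 0.82 (limma adjusted p = 0.264) with it and 1.27 (adjusted p = 0.0210) without it. Tnc (tenascin C), named after its values were seen, was above Fbln2 in every WT library. It was at 94.2, 105.1 and 110 CPM in WT replicates 1, 2 and 3 and at 92.8, 51.2 and 80.6 CPM in CKO replicates 1, 2 and 3 (log2 fold change -0.49, limma adjusted p = 0.246). Its groups did not overlap but were barely apart, at WT replicate 1 and CKO replicate 1, which had 130 and 135 reads. The SOX factors that act on Acan enhancers in chondrocytes gave 0 calls of 3 with limma, edgeR or DESeq2. At an unadjusted p under 0.05, 1 of the 3, Sox9, was lower, against 10.1% of all genes tested. Sox9 was at 68.1, 81.8 and 102 CPM in WT replicates 1, 2 and 3 and at 42.0, 73.6 and 32.1 CPM in CKO replicates 1, 2 and 3. CKO replicate 2 lay inside the WT range (-0.83 on the log2 scale, limma adjusted p = 0.137), and without it the log2 fold change was -1.15 with an adjusted p of 0.00888.

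**Figure D5:**
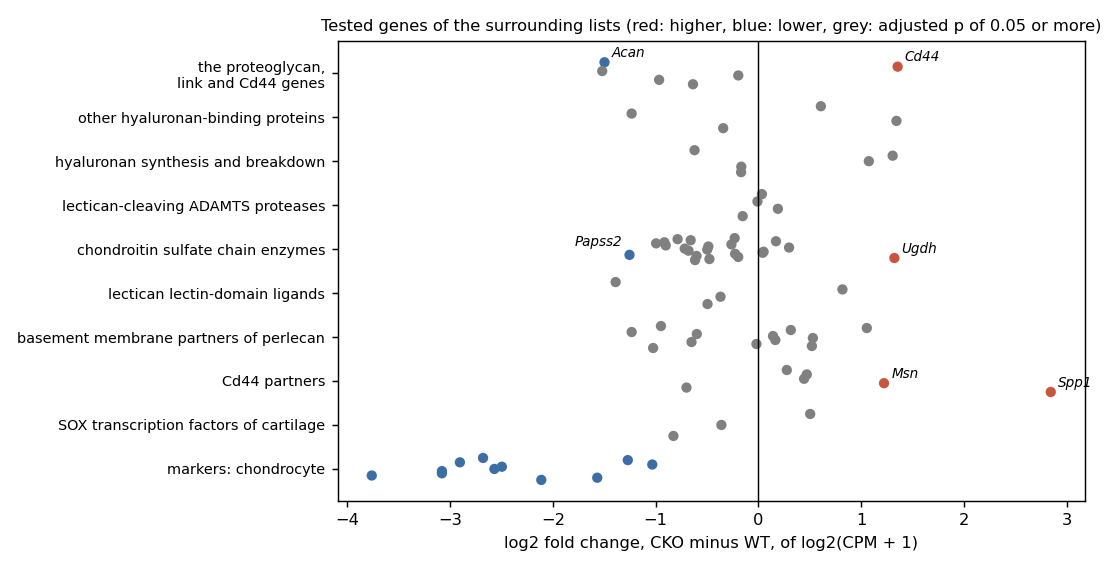
Log2 fold change (CKO minus WT, of log2(CPM + 1)) of each tested gene of the proteoglycan, link protein and Cd44 set (without Hapln3) and of 9 related lists, with 1 point per gene, red for higher and blue for lower at an adjusted p under 0.05. All 11 chondrocyte markers lie left of 0, whereas of 22 chondroitin sulfate genes only Papss2 and Ugdh are coloured.

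The tissue was checked against its markers. All 11 chondrocyte markers were expressed, and all 11 fell in CKO, with a summed level of 27523, 28470 and 35551 CPM in WT replicates 1, 2 and 3 and 6051, 6742 and 5996 CPM in CKO replicates 1, 2 and 3. Among them the log2 fold change was -3.76 for Matn1, -3.08 for Comp, -2.68 for Cnmd and -2.50 for Col9a1, the 4 with the smallest p. The whole list ran from -3.76 to -1.03 with a median of -2.57, beside -1.50 for Acan and -0.20 for Hapln1. Of the 11 markers, 9 had a lower value than Acan and 2 a higher one, Col2a1 (-1.03) and Col11a1 (-1.27), which were named after their values were seen. The differences between these genes were not tested. Hypertrophic markers summed to 429, 383 and 822 CPM in WT and 2928, 515 and 3163 CPM in CKO, so that for this sum CKO replicate 2, the CKO library with the most Acan, Hspg2 and Cspg4, lay within the WT range. The sum is mostly Mmp13 and Ibsp, and of the 4 tested markers 0 passed with limma, edgeR or DESeq2. Mmp13 and Ibsp were higher at an unadjusted p under 0.05, 2 of 4 against 11.2% of all genes tested. Col10a1, the collagen of hypertrophic cartilage, overlapped between the groups at 13.0, 15.8 and 43.9 CPM in WT replicates 1, 2 and 3 and 24.8, 45.5 and 16.5 CPM in CKO replicates 1, 2 and 3, highest in CKO replicate 2 (Ibsp and Col10a1 were named after their values were seen). The hypertrophic collagenase Mmp13 had a log2 fold change of 1.81 (limma adjusted p = 0.118), and of 2.66 (adjusted p = 0.000929) without that library. Fibroblast and perichondrium markers summed to 2765 to 4324 CPM in WT and 982 to 1812 CPM in CKO, with Dcn (decorin) lower (log2 fold change -1.89, limma adjusted p = 0.00429). All 6 were tested and had a negative log2 fold change, with a median of -1.09. At an unadjusted p under 0.05, 4 were lower, against 10.1% of all genes tested. They were Dcn and, named after their values were seen, Col3a1, Col14a1 and Dpt. DESeq2 called 2 of the 6 lower and edgeR 1. Osteoblast markers summed to 329 to 584 CPM in WT and 284 to 567 CPM in CKO, with 0 of 5 tested passing with limma, edgeR or DESeq2. At an unadjusted p under 0.05, Col1a1, which made up most of that sum in every WT library, was lower (-0.57). By the same criterion Bglap2 (an osteocalcin gene, named after its values were seen) was higher (1.53). That is 1 of 5 in each direction, against 10.1% lower and 11.2% higher of all genes tested. Of the 5 tested, 4 had a positive log2 fold change. In CKO replicates 1, 2 and 3, Bglap2 was at 290, 35.4 and 257 CPM and Col1a1 at 245, 240 and 269 CPM. In WT replicates 1, 2 and 3, Bglap2 was at 50.7, 69.0 and 30.4 CPM. The parts of these cell types in the levels of the proteoglycans were not tested. Summed erythroid, skeletal muscle and epithelial markers stayed at or below 49.1 CPM in every library.

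How the 5 genes averaging 20 CPM or more (all but Vcan and Hapln3) vary together was described by the root mean square difference of log2(CPM + 1), each gene centred on its own mean over the 6 libraries. Acan was closest to Cspg4 with 0.259 and to Hspg2 with 0.326, Hspg2 and Cspg4 differed by 0.394, and Acan and Hapln1 by 0.704. Among 5021 genes that averaged 20 CPM or more, the ones nearest to Acan were Eri3 (0.169) and Rpl22l1 (0.179). Sox9 (0.135) was nearest to Hspg2, Ddx17 (0.126) to Cspg4, Wbp2 (0.0291) to Hapln1 and Pmm1 (0.0975) to Cd44. Acan was itself among the 3 genes nearest to Cspg4.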

How the data were processed

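RNA of growth plate cartilage was measured by stranded poly(A) RNA-seq in 6 libraries, 3 WT and 3 CKO. The authors deposited CPM per gene and library, and the submitters' processing notes name cutadapt 2.5, HISAT2 and featureCounts 1.6.3. The genome build and annotation are not given in the sources used here. Gene positions and exon lengths came from GENCODE M21 (GRCm38), which held 15212 of the 15217 Ensembl identifiers, and promoters from RefSeq (GRCm38.p6). Other identifiers, without names, are carried by 586 genes. In each library 100.0% of values were whole multiples of 1 read (tolerance 0.01 reads), worth 0.688 to 0.867 CPM. The floor of 3 reads (2.06 to 2.60 CPM) covers counting error only.

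The 12155 genes averaging 1 CPM or more were fitted on log2(CPM + 1) by genotype with limma 3.58.1 (R 4.3.3, trend, Benjamini-Hochberg adjustment over all of them, threshold 0.05). On this scale, changes of genes with few reads are understated. Alternatives were a pseudocount of 0.1, no filter, a mean of at least 10 CPM, a replicate block, each library left out, TMM-scaled CPM, edgeR 4.0.16 (quasi-likelihood) and DESeq2 1.42.0 on recovered reads, and the study's criterion. Counts out of 13 alternatives leave out the study's criterion, which reads the main fit. The totals of values and of list counts include it. The fits were tested on simulated data.

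The genes and lists were chosen with earlier results of these data known. Named were the 7 genes, called genes of each list (at most the 4 with the smallest p) or otherwise its most abundant gene, the nearest tested protein-coding genes and the genes of nearest pattern. Any other gene was chosen after its values were seen.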

Additional observations from a re-analysis of the deposited data

How the results depend on the processing

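Acan stayed lower in all 13 alternatives run for it, not counting the study's criterion, and Hapln1 and Vcan passed in none of theirs. Of 95 values of the 7 genes under alternatives, the study's criterion included, 85 kept their direction and side of the threshold. The number of the 7 genes called lower was 2 with no filter, TMM-scaled CPM, edgeR, DESeq2 and the study's criterion, and 1 to 3 with single libraries left out, with 3 without CKO replicate 2. The number called higher was 0 to 1, with 0 without WT replicate 2 or CKO replicate 1. With all libraries kept, the gene that joined was Cspg4, at -1.52 with no filter (adjusted p = 0.0387, limma) and under the study's criterion, -1.56 with TMM-scaled CPM (adjusted p = 0.0436, limma), -1.50 with edgeR and -1.50 with DESeq2 (adjusted p = 0.00543). Without CKO replicate 2, Cspg4 and Hspg2 both joined (Hspg2 at -1.30, limma adjusted p = 0.00405). With single libraries left out, Cspg4 ran from -1.86 to -1.08, Hspg2 from -1.30 to -0.64, Cd44 from 1.32 to 1.43 and the fitted value of Hapln3 from -0.75 to 0.061, its sign turning without CKO replicate 2. The cause was not tested.

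Over all genes tested, the replicate block gave 225 higher and 160 lower, the study's criterion gave 644 and 620, and leaving out single libraries gave 123 to 692 higher and 79 to 606 lower, with the highest counts without CKO replicate 2 and the lowest without CKO replicate 3 (higher) and WT replicate 2 (lower). Deviations of libraries that share a number correlated by 0.07, -0.21 and -0.16, and those of libraries with other numbers by -0.18 to 0.21. These values gave no sign of pairing by number, but with unlike libraries within groups they cannot exclude it. The paper states that mice were compared with littermates, and the sample titles name no litter. Under the block Papss2 had an adjusted p of 0.0509 and Edil3 of 0.0664 (limma). Of 349 values of 25 other named genes, 312 kept direction and side, 16 lost the threshold, 13 gained it and 8 changed sign. These 8 were Hyal2 at 0.083 without CKO replicate 2 (range over left-out libraries -0.34 to 0.083), Mfge8 at -0.012 without WT replicate 2 and -0.041 without CKO replicate 2 (range -0.041 to 0.42), and Adamts1 at -0.19 without WT replicate 1 and -0.011 without CKO replicate 1 (range -0.19 to 0.22), -0.0096 with TMM-scaled CPM, -0.037 with edgeR and -0.022 with DESeq2. Of 504 counts for the lists, 34 moved by over 1.5 times. With 3 libraries a group and 1153871 to 1454094 reads each, genes such as Vcan and Hapln3 had too few reads for a small difference to be detectable.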
